A study of Homo sapiens with 4 samples.

Results

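IGFBP2, a secreted binding protein of the insulin-like growth factors (IGFs), gave 7.84-fold lower signals in U937 leukemia cells carrying AML1/ETO than in control cells. None of the other 8 IGF genes described here was called different. Calls were rare in general, as 4% of all genes were called lower and 1.7% higher. IGFBP3, IGFBP5, IGFBP6 and IGF1 moreover had no probe set above the array median on all 4 arrays. The set comprised the binding proteins IGFBP2, IGFBP3, IGFBP4, IGFBP5, IGFBP6 and IGFBP7, the ligand IGF1 and the receptors IGF1R and IGF2R, 9 genes of the 19775 genes with a probe set of their own. All 27 probe sets annotated to these genes alone were taken, of 54613 non-control probe sets. The set was chosen on the strong difference of IGFBP2 between the same arrays, so that difference is given as a description and supports nothing beyond itself.

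U937 is an established human myelomonocytic cell line. U937-AE is a clone of it in which HA-tagged AML1/ETO, the fusion protein of t(8;21) acute myeloid leukemia, stands behind the zinc-inducible mouse metallothionein promoter; U937-Mt is a bulk population carrying the empty pSG-MtNEO vector. Both lines were exposed to 100 µM ZnSO4 for 8 hours, so zinc was common to the compared groups. For each line, RNA from 3 extractions was pooled and this pool went onto 2 identical Affymetrix expression arrays, 4 arrays in all. There was therefore 1 pool per line: the distance between array copies measures hybridization error alone, no p-value between the lines could be given, and induced protein, clonal origin and pool cannot be told apart.

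IGF1 and IGF2 bind IGF1R, a receptor tyrosine kinase that signals through the IRS adaptors to PI3-kinase and AKT. In extracellular fluid most IGF is held by the IGFBPs, which prolong its life, keep it from the receptor or deliver it there, and which are cleaved by proteases such as PAPPA. IGFBP2 also carries an RGD motif through which it can bind integrins. IGF2R, the cation-independent mannose 6-phosphate receptor, has no kinase: it carries lysosomal enzymes to their compartment and removes IGF2 from the cell surface.

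Signals below the median of an array were raised to that median before log2 differences were taken. This floor stood at 119.5 and 129.7 for U937-AE, and at 146.8 and 153.6 for U937-Mt, so a probe set below it on all 4 arrays takes a log2 difference of -0.27 by construction. A probe set was called lower or higher in U937-AE when all 4 comparisons of a U937-AE with a U937-Mt array exceeded 1.5-fold in 1 direction. In RNA of a whole culture, fewer cells with a transcript and less transcript per cell cannot be told apart.

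Promoter windows are shown of IGFBP2, of its chromosomal neighbour IGFBP5 and of IGF2R, which came nearest to a further call. The reason is that AML1 and AML1/ETO are known to recognize TGTGGT or TGCGGT, and E-proteins E-boxes such as CAGGTG or CAGCTG. Matches to another E-box, CACGTG, were counted too and are not offered as E-protein sites. RefSeq windows on GRCh38.p14 run from 250 bases before to 50 bases after an annotated start; 11 windows represented 8 of the 9 genes, with no entry for IGFBP7. Capitals mark matches to these 5 motifs on either strand, and sequences run 5′ to 3′ on the strand of the gene. The upstream IGFBP2 window spans the outermost start and the second covers a GC-rich start inside the gene.
IGFBP2 upstream start, chr2:216632578-216632877, plus strand: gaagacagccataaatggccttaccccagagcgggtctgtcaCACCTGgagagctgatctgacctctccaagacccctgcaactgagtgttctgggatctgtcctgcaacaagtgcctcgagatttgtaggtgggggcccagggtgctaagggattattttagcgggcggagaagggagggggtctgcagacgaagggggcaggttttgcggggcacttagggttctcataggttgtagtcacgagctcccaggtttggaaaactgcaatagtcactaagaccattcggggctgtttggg
IGFBP2 GC-rich start, chr2:216633170-216633469, plus strand: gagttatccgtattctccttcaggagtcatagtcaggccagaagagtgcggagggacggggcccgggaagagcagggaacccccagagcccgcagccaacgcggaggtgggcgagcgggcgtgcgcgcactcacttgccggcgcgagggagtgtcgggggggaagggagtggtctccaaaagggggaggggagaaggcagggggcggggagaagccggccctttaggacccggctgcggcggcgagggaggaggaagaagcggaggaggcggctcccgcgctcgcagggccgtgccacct
IGFBP5, chr2:216695500-216695799, minus strand: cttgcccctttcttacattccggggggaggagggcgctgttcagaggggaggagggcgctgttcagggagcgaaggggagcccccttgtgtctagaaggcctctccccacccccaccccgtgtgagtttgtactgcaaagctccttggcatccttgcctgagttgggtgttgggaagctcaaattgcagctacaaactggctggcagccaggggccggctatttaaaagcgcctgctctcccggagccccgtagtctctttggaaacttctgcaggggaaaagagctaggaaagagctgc
IGF2R, chr6:159968832-159969131, plus strand: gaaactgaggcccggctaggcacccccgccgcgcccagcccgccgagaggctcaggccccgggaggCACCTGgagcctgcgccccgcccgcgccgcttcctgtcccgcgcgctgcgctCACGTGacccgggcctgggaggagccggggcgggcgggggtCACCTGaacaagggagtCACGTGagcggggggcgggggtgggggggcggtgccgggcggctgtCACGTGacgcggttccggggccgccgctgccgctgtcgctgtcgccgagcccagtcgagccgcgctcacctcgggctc

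The GC-rich IGFBP2 window held 70.0% G and C and 28 CpG dinucleotides, against a median of 58.7% over all 35116 windows, and contained none of the 5 motifs. Its upstream window had 55.3% G and C with 1 CAGGTG, which begins 208 bases before the start. Neither printed IGFBP2 window nor that of a further start, chr2:216659317-216659616, contained TGTGGT or TGCGGT. One of the 11 windows did, an IGF1 start at chr12:102481698-102481997 with 1 TGTGGT; 19.6% of all windows held at least 1 match to either. Over the 11 windows the share of G and C ran from 42.3% in IGF1 to 79.7% in IGF1R. The IGF2R window held 3 CACGTG, which begin 132, 74 and 28 bases before the start, and 2 CAGGTG. At least 3 CACGTG were found in 33 windows of all genes, 0.0940%, at least 2 CAGGTG in 3.49% and at least 1 CAGGTG in 20.6%. These shares were not matched for G and C, which made up 78.7% of the IGF2R window. The match counts describe letters in a window and say nothing of binding, nor does a lack of matches.

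IGFBP2 and IGFBP5 are neighbours on chromosome 2. IGFBP2 lies at chr2:216632828-216664436 and IGFBP5 at chr2:216672105-216695549 on the opposite strand, 7.67 kb apart, with their 3′ ends facing each other. Their signals differed in kind: IGFBP2 was well above the floor on every array, while no IGFBP5 probe set was.

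Among the binding proteins, IGFBP2 was lower in U937-AE. Its single probe set, 202718_at, read 419.3 and 358.8 for U937-AE but 2924.2 and 3161.7 for U937-Mt. All 4 signals were above the floor and the lines were far apart, whereas array copies lay 1.17-fold apart in U937-AE and 1.08-fold in U937-Mt. The log2 difference was -2.97, with the 4 comparisons between -3.14 and -2.80, or 7.84-fold lower (6.97-fold to 8.81-fold). Ordered by the difference of the brightest probe set, IGFBP2 was number 15 from the lowest among 19775 genes. IGFBP2 had no further probe set on the array, so no other part of its transcript was measured.

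**Figure D1:**
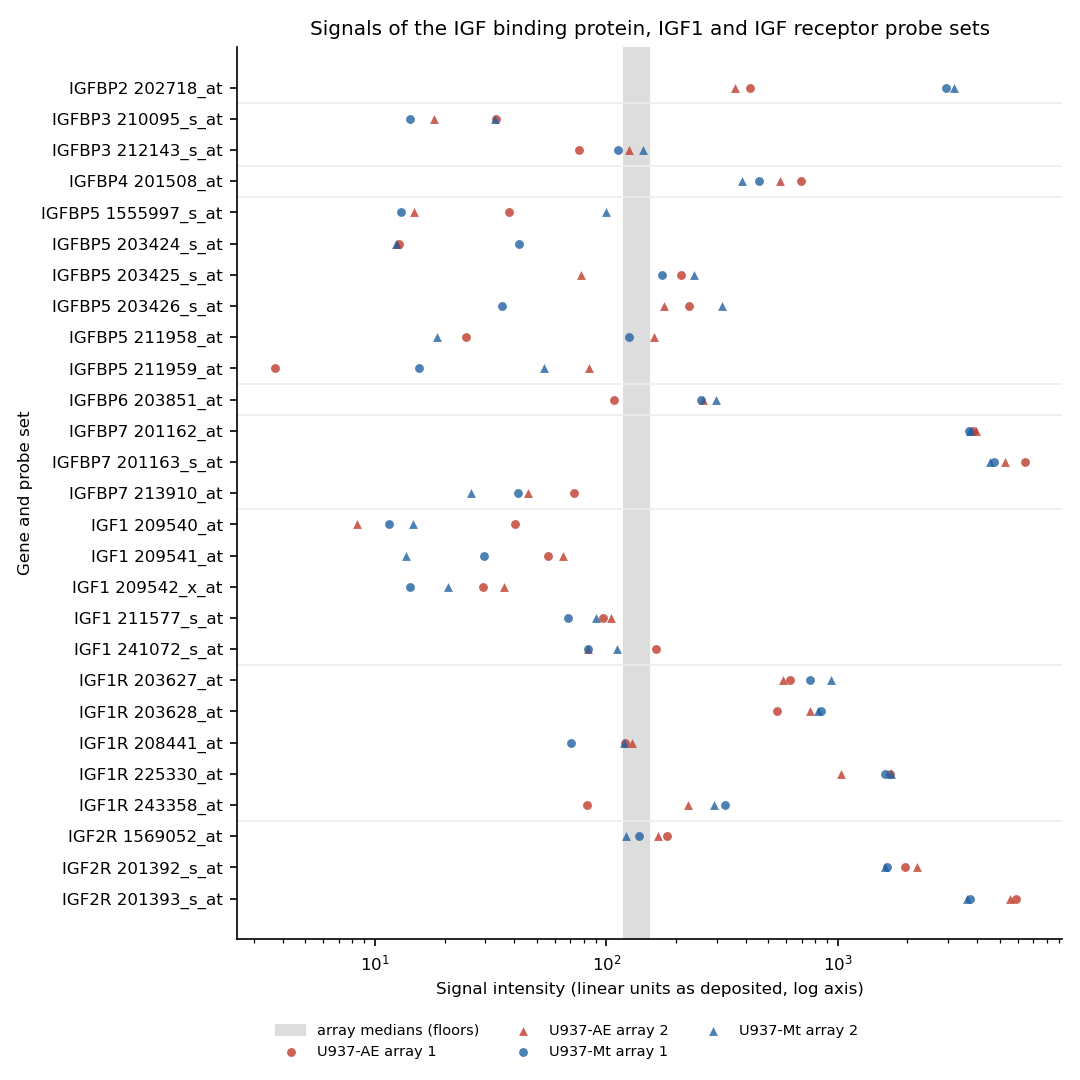
Signal intensity (linear units, log axis) of each of the 27 member probe sets on each array; red points are U937-AE, blue points U937-Mt, circles array 1, triangles array 2, and the grey band spans the 4 array medians used as floors (119.5 to 153.6). IGFBP2 shows the widest gap between lines among probe sets above the floor. IGFBP7, IGF1R and IGF2R show smaller gaps or overlap, and IGFBP3, most IGFBP5 and most IGF1 probe sets lie at or below the band.

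IGFBP4, which generally holds IGFs away from their receptor and is the best known substrate of PAPPA, had signals of 693.2 and 560.6 in U937-AE cells and 455.4 and 384.4 in control cells (201508_at). The U937-AE arrays were both above the U937-Mt arrays, with a log2 difference of 0.58 (0.30 to 0.85) or 1.49-fold, but not every comparison passed 1.5-fold and IGFBP4 was not called. The nearest arrays of the lines were 1.23-fold apart, about as far as the copies of 1 pool, which were 1.24-fold apart in U937-AE and 1.18-fold in U937-Mt. PAPPA itself, measured by 201982_s_at, gave 148.4 and 82.7 in U937-AE cells and 189.6 and 346.8 in control cells, without a call.

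IGFBP7 binds IGFs only weakly, binds insulin as well, and is also known as IGFBP-related protein 1. It had signal well above the floor in both lines. Probe set 201163_s_at gave 6406.5 and 5288.1 in U937-AE cells and 4739.1 and 4553.9 in control cells, a log2 difference of 0.33. Probe set 201162_at gave 3838.7 and 3963.4 against 3685.9 and 3706.3, a log2 difference of 0.08 that became -0.02 after quantile normalization. In both, the U937-AE arrays were above the U937-Mt arrays by less than the 1.5-fold required; the third probe set, 213910_at, was below the floor on all 4 arrays, at 26.0 to 72.2.

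IGFBP6, which prefers IGF2 to IGF1, was near the floor. Its probe set 203851_at gave 107.6 and 261.3 in U937-AE cells and 256.1 and 296.9 in control cells. The lines overlapped, as the second U937-AE array exceeded the first U937-Mt array, and the log2 difference of -0.64 ran from -1.31 to 0.03. The first U937-AE array decided its size: the difference was -0.08 without it and -1.21 without the second.

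IGFBP3, the main carrier of IGFs in serum, was below the floor on every array with both probe sets. The signals were 33.5 and 18.1 in U937-AE cells and 14.2 and 33.1 in control cells for 210095_s_at, and 76.0 and 125.1 against 112.8 and 144.0 for 212143_s_at. IGFBP5, a binding protein prominent in bone and muscle, had 6 probe sets, of which 3 were below the floor on every array and 3 passed it on some. Probe set 203425_s_at gave 209.9 and 77.7 in U937-AE cells and 173.4 and 239.9 in control cells. Probe set 203426_s_at gave 226.8 and 177.3 against 35.5 and 316.7, where the 2 copies of the U937-Mt pool were 8.92-fold apart. Probe set 211958_at passed the floor on 1 U937-AE array, with 24.8 and 160.9 in U937-AE cells and 125.0 and 18.6 in control cells, and the others ranged from 3.7 to 99.6. In each of these probe sets the copies of at least 1 pool lay further apart, before the floor, than the means of the lines. No difference of IGFBP3 or IGFBP5 was measurable on these arrays.

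The ligand IGF1 was also at the floor. Of its 5 probe sets, 4 were below it on all arrays, at 8.4 to 105.0, and 241072_s_at passed it on 1 array, with 163.4 and 83.4 in U937-AE cells and 83.7 and 110.7 in control cells. Signals of this size do not show whether IGF1 mRNA was present at a low level in either line.

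**Figure D2:**
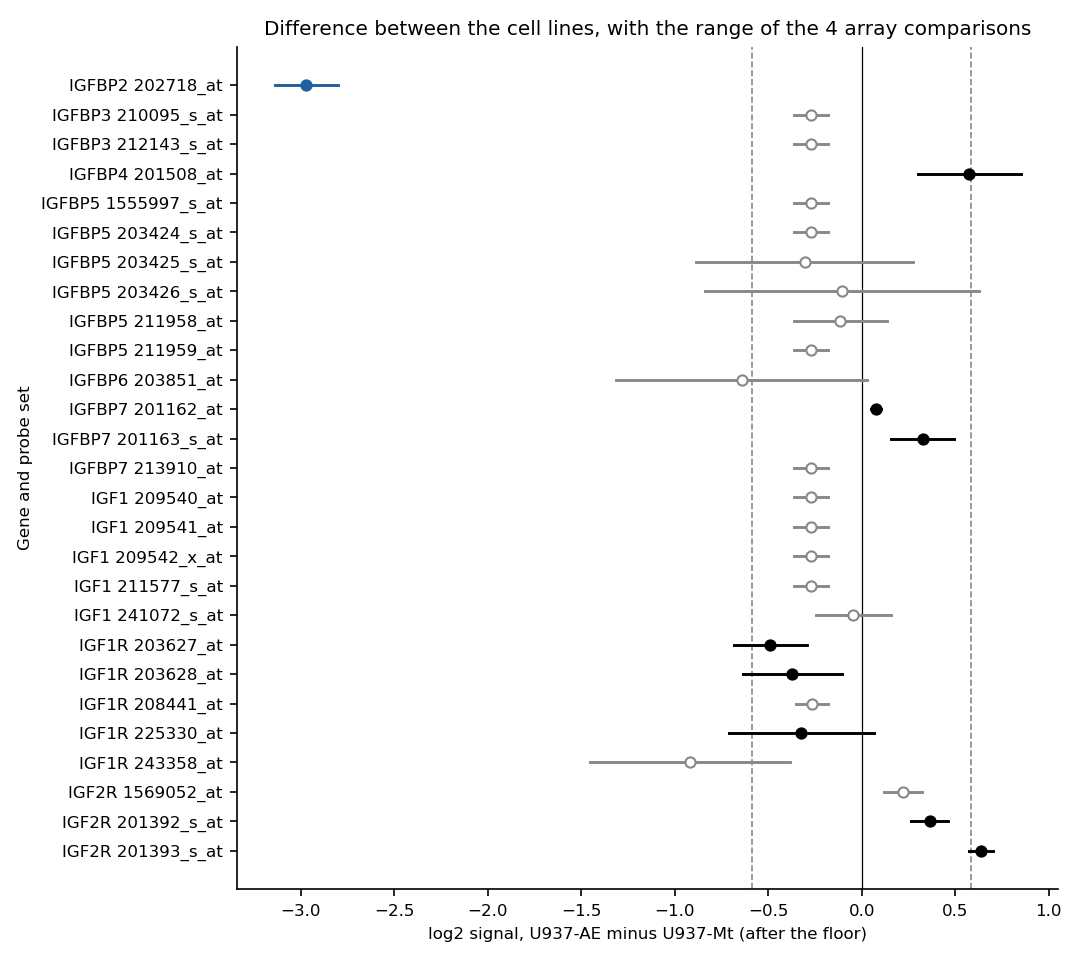
Difference of log2 signal, U937-AE minus U937-Mt, for each member probe set; bars run from the lowest to the highest of the 4 array comparisons, filled points were above the floor on all 4 arrays, open grey points were at the floor on at least 1, and dashed lines mark 1.5-fold. IGFBP2 at -2.97 lies apart from the other points, IGF2R 201393_s_at at 0.64 straddles the upper line, and probe sets at the floor throughout sit at -0.27.

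Neither receptor was called. IGF1R had 5 probe sets and IGF2R 3. The brightest IGF1R probe set, 225330_at, gave 1677.2 and 1034.8 in U937-AE cells and 1602.8 and 1694.0 in control cells. The lines overlapped, with a log2 difference of -0.32. This difference changed sign to 0.02 when arrays were scaled to their spike-in controls and to 0.03 without the second U937-AE array. The IGF1R probe set 203627_at gave 619.8 and 579.7 against 760.5 and 931.4, a log2 difference of -0.49 (-0.68 to -0.30). Probe set 203628_at gave 546.1 and 760.5 against 849.9 and 818.3, a difference of -0.37. In these last probe sets every U937-AE array was below every U937-Mt array, and in none did all comparisons pass 1.5-fold.

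The dimmer IGF1R probe set 243358_at gave 82.6 and 224.9 in U937-AE cells and 326.9 and 293.3 in control cells, a log2 difference of -0.92 (-1.45 to -0.38) with 1 U937-AE array at the floor. The remaining 208441_at stayed at or next to the floor, from 70.5 to 128.6. The 4 probe sets with signal in both lines thus had differences between -0.92 and -0.32, and 225330_at alone among them overlapped.

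IGF2R came nearest to a call without one. Probe set 201393_s_at gave 5905.8 and 5541.5 in U937-AE cells and 3730.4 and 3629.9 in control cells. Copies agreed within 1.07-fold in U937-AE and 1.03-fold in U937-Mt and the lines were well separated. The difference was 0.64 on the log2 scale (0.57 to 0.70), or 1.55-fold, and the smallest comparison, 1.49-fold, fell just below the threshold of 1.5. Probe set 201392_s_at gave 1948.5 and 2202.1 against 1623.8 and 1599.8, a log2 difference of 0.36. The dim 1569052_at gave 183.2 and 166.9 against 138.1 and 121.2, with both U937-Mt arrays at the floor. All 3 probe sets were higher in U937-AE in every comparison. Probe set 201393_s_at was called higher under 6 of 16 other settings, among them scaling to the spike-in controls and shifting arrays to the same median. After quantile normalization its log2 difference was 0.53, without a call.

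Over the set, 1 of 27 probe sets was called lower, 3.70%, where 2.74% of all probe sets were, and 0 of 27 higher, where 1.29% were. Since IGFBP2 chose the set, nothing is read from this count. Of the 27 probe sets, 9 were above the floor on all 4 arrays, 8 on some and 10 on none. Signals of the lines did not overlap in 15 of 27, 55.6%, against 50.05% of all probe sets. The median log2 difference of -0.27 equalled that of all 54613 probe sets, since the floor sets both.

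**Figure D3:**
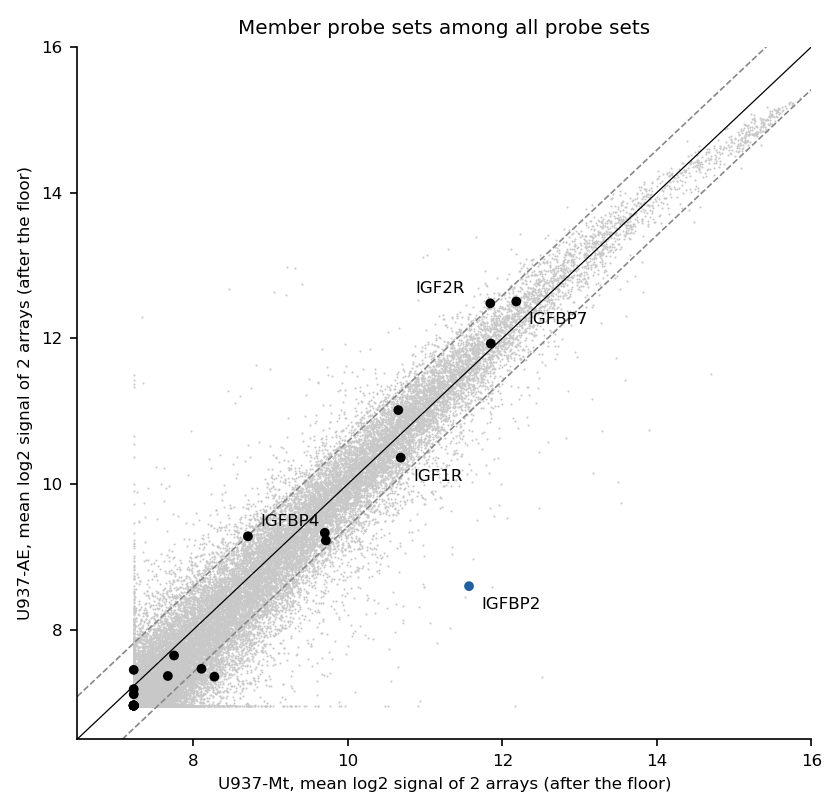
Mean log2 signal of the 2 U937-AE arrays against that of the 2 U937-Mt arrays for all 54613 probe sets (grey) and the 27 member probe sets (black; blue for the one called lower), with the line of equality and dashed lines at 1.5-fold. IGFBP2 lies far below the band of points, while the labelled IGF2R, IGFBP7, IGFBP4 and IGF1R lie within or at the edge of the dashed lines and the other members gather at the floor in the lower left.

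The genes whose pattern over the 4 arrays was most like that of IGFBP2 were MPO, AHNAK, LYST, CTSG and ADCY7, by the Euclidean distance of log2 signals centred on their mean (0.26, 0.33, 0.35, 0.37 and 0.37), among 10673 genes measured above the floor throughout. With 4 arrays of 2 pools, such likeness reflects little more than a like difference between the lines. MPO, the myeloperoxidase of neutrophil granules, gave 1898.0 and 1557.9 in U937-AE cells and 16116.7 and 14590.8 in control cells, 8.92-fold lower. CTSG, the granule protease cathepsin G, gave 1063.6 and 1208.5 against 9913.5 and 8690.2, 8.19-fold lower. LYST, a regulator of lysosome traffic, was 8.45-fold lower, AHNAK, a large scaffold protein, 6.27-fold and ADCY7, an adenylyl cyclase, 6.12-fold. All 5 are named for this likeness alone.

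The rest of the pathway was described through 9 lists with 88 genes, of which 81 had a probe set of their own. By the brightest probe set, 5 of 81 were called lower, 6.17% against 4% of all genes, and 4 were called higher, 4.94% against 1.7%. The other 72 were not called. The median log2 difference was -0.27, as over all genes. A gene below the floor on all 4 arrays cannot be called. This held for 12 of the 81. Of all 19775 genes 12934 reached the floor in at least 1 line by the mean of its arrays. That is a different rule, so these counts are not directly comparable. The shares called were not adjusted for genes below the floor and may not be on an equal footing. The lists were also chosen with earlier results known. When the arrays were scaled to the spike-in controls none of the 5 remained called lower and 7 genes of the lists were called higher, so the balance of directions rests on the scaling.

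Of 13 receptor substrates and adaptors, IRS2 and GRB10 were called lower and none higher. IRS2, an adaptor that links IGF1R and the insulin receptor to PI3-kinase, gave 914.5 and 991.0 in U937-AE cells and 2068.0 and 1790.4 in control cells, 2.02-fold lower, while its other probe set was 1.58-fold lower and not called. GRB10, an adaptor that restrains both receptors, gave 1150.5 and 1160.1 against 2225.1 and 2400.6, 2.00-fold lower, and 210999_s_at was 2.46-fold lower; 209410_s_at, 1.54-fold lower, and 215248_at were not called, so 2 of 4 probe sets were. In both genes the lines were well separated. IRS1, the sister adaptor of IRS2, gave 249.1 and 308.0 in U937-AE cells and 223.8 and 150.8 in control cells near the floor and was not called.

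The PI3-kinase to mTOR list held 22 measured genes, of which 2 were called lower and 1 higher, with a median difference of 0.01. PIK3CD, the catalytic subunit delta found mainly in leukocytes, gave 2720.3 and 2446.9 in U937-AE cells and 5604.9 and 4754.8 in control cells, 2.00-fold lower. PIK3CB, the catalytic subunit beta, gave 485.4 and 517.0 against 1083.8 and 861.5, 1.93-fold lower. PIK3R3, a regulatory subunit, gave 1186.8 and 1069.8 against 706.1 and 698.4, 1.60-fold higher. Each of these 3 genes had a second probe set that was not called, 1.74-fold lower for PIK3CD, below the floor for PIK3CB and 1.04-fold higher for PIK3R3. The calls in this list thus concerned subunits of the lipid kinase and no gene further down.

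**Figure D4:**
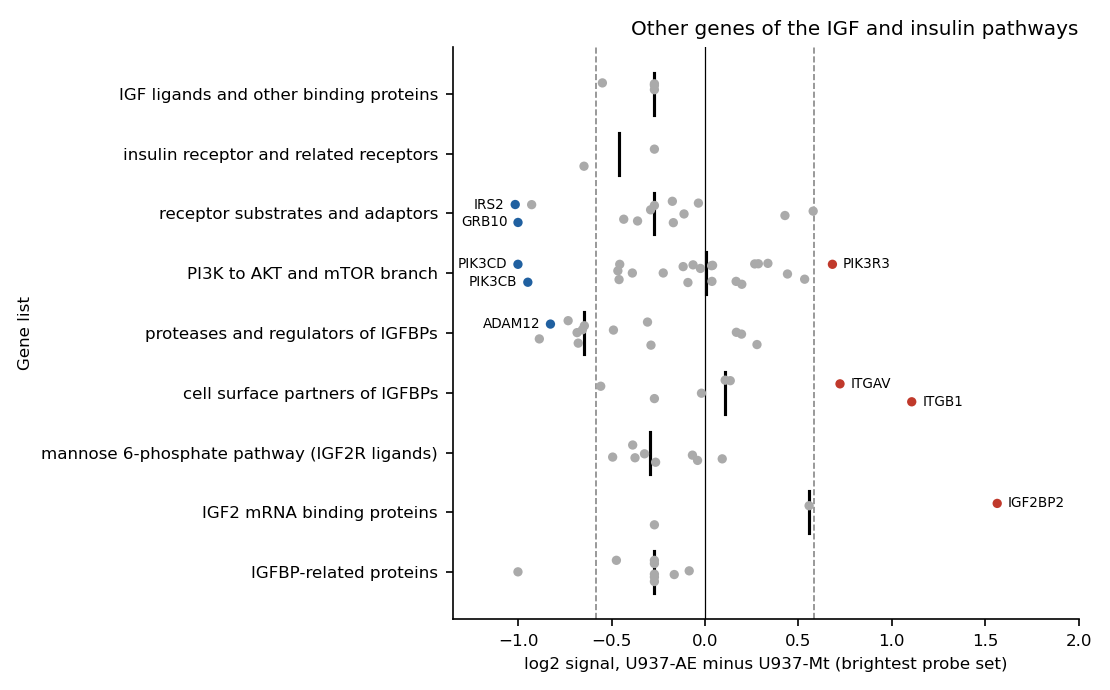
Difference of log2 signal, U937-AE minus U937-Mt, of the brightest probe set of each of the 81 measured genes in 9 lists; blue points were called lower, red points higher, grey points not called, black bars are list medians and dashed lines mark 1.5-fold. Called genes are named: IRS2, GRB10, PIK3CD, PIK3CB and ADAM12 lie to the left, and PIK3R3, ITGAV, ITGB1 and IGF2BP2 to the right.

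Cell surface partners of the IGFBPs included both integrin chains called higher. ITGB1, the integrin beta chain shared by receptors for fibronectin and collagen, gave 10186.9 and 8959.1 in U937-AE cells and 4590.3 and 4287.8 in control cells, 2.15-fold higher, and 3 of its 7 probe sets were called higher. ITGAV, the alpha chain that recognizes RGD motifs, gave 722.3 and 747.1 against 422.2 and 469.3, 1.65-fold higher. The other 5 partners measured were not called, among them ITGA5, the alpha chain of the fibronectin receptor, at 2867.7 and 2661.0 against 2903.7 and 2696.4.

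Among proteases that cleave IGFBPs and their regulators, 1 of 13 was called lower and none higher, with a list median of -0.65. ADAM12, a metalloprotease that cleaves IGFBP3 and IGFBP5, gave 234.2 and 260.5 in U937-AE cells and 404.9 and 474.0 in control cells, 1.77-fold lower, by 1 of 5 probe sets. The list median lies below that of all genes, with several of these genes near the floor.

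Of 3 IGF2 mRNA binding proteins, which attach to transcripts including that of IGF2 and govern their stability and translation, IGF2BP2 was called higher. Probe set 218847_at gave 3868.0 and 3564.7 in U937-AE cells and 1147.7 and 1374.3 in control cells, 2.96-fold higher, while its second probe set differed by 0.55 on the log2 scale and was not called. IGF2BP3 gave 3666.8 and 3444.1 against 2387.3 and 2442.7 by its brightest probe set, 1.47-fold and not called. It was 1.79-fold higher by 203819_s_at, the only 1 of its 4 probe sets that was called. Probe set 216493_s_at was 1.78-fold higher and not called. Probe set 1569033_at had a log2 difference of -0.23, with the lines overlapping. IGF2BP1 was below the floor on all arrays. The IGF2BP2 difference stayed between 1.43 and 1.91 on the log2 scale in 16 other settings and was called in 15. Settings that changed only the call rule or the floor left the difference at 1.56. The t-test corrected over all probe sets, which calls no probe set, left it uncalled.

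No gene was called in the lists of ligands and other binding proteins (4 measured), insulin receptors (2), the mannose 6-phosphate pathway served by IGF2R (8) or IGFBP-related proteins (9). IGFBP1, the liver binding protein regulated by insulin, was below the floor on every array. The insulin receptor INSR, a close relative of IGF1R, was measured differently by its probe sets: 226450_at gave 557.7 and 504.1 in U937-AE cells and 836.2 and 824.6 in control cells, a log2 difference of -0.65 and not called, whereas 213792_s_at gave 505.0 and 517.3 against 326.2 and 298.8, 1.64-fold higher and called. No single direction can therefore be given for INSR. IGF2 had no probe set of its own, and no value is given for it.

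**Figure D5:**
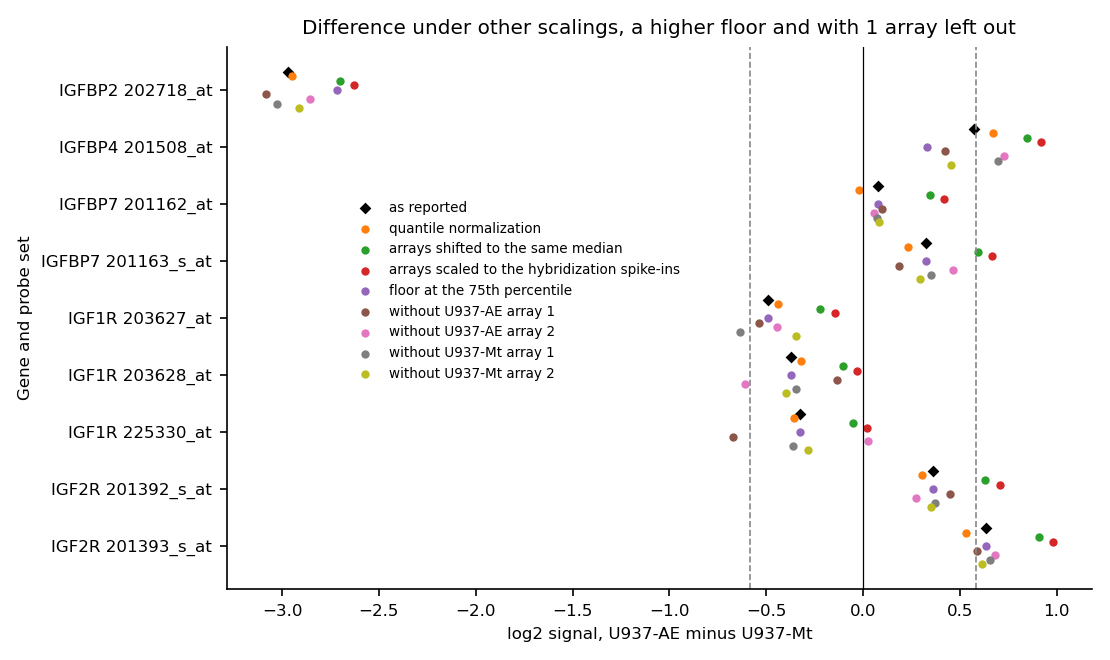
Difference of log2 signal, U937-AE minus U937-Mt, for the 9 member probe sets above the floor on all 4 arrays, as reported (black diamonds) and under 8 other settings (coloured circles): 3 other scalings, a higher floor, and 1 array left out at a time; dashed lines mark 1.5-fold. IGFBP2 stays between -3.08 and -2.63, IGF2R 201393_s_at between 0.53 and 0.98, and IGF1R 225330_at and IGFBP7 201162_at cross 0.

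As a check of the labels, the RUNX1T1 (ETO) probe set 216831_s_at gave 1361.5 and 1299.0 in U937-AE cells and 8.6 and 7.6 in control cells, at least 8.86-fold higher against the floor, while 5 of its 7 probe sets were below the floor on every array. Of 8 myeloid markers with a probe set, 7 were above the floor on all arrays and CD14, a marker of mature monocytes, was below it on all. Their summed signal was 14288 to 15315 in U937-AE and 27485 to 28799 in U937-Mt, so it moved in the same direction as IGFBP2. This fall rested on MPO, which made up most of the U937-Mt sum, at 16116.7 and 14590.8. Of the U937-AE sum it was a small part, at 1898.0 and 1557.9. The sum therefore does not describe the markers as a set. Its part in the IGFBP2 result was not tested. By the same rule 4 of the 8 were called lower, MPO 8.92-fold, SPI1, a transcription factor of myeloid cells, 2.77-fold, ITGAM 2.16-fold and LYZ 2.05-fold. CSF1R was 1.72-fold lower without a call and CD4 1.07-fold. PTPRC, the leukocyte antigen CD45, was called higher, 1.56-fold, with 8182.6 and 7830.9 in U937-AE cells and 5112.7 and 5148.8 in control cells. Stromal markers, which cells rich in IGFBPs carry, were above the floor in 3 of 6 and summed to 907.0 to 1097.0 in U937-AE and 800.3 to 1104.2 in U937-Mt, with COL3A1 and LUM below the floor throughout. Of 3 T cell markers 1 was above the floor on all arrays, of 2 B cell markers 1, and of 3 hepatocyte markers none. ALB, a defining hepatocyte marker, was below the floor throughout, and APOA1 passed it on 1 array of each line. TTR passed it on both U937-Mt arrays only, with 32.0 and 29.5 in U937-AE cells and 205.0 and 169.3 in control cells, without a call. Array means were equal by the deposited scaling, at 500.1, but the spike-in controls read 1.27-fold brighter with U937-Mt. The log2 signals of array copies correlated with r = 0.94 in U937-AE and 0.92 in U937-Mt, and those of different lines with r = 0.91 to 0.92, over all probe sets, which are not independent.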

How the data were processed

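Linear signal intensities of 54675 probe sets on 4 Affymetrix HG-U133 Plus 2.0 arrays were used as deposited by the authors, who made them with GCOS (version: not given in the sources used here), whose trimmed array means are equal. No depth exists for arrays, so their number limits precision. Probe sets were named through the platform annotation, updated by Entrez ID: 41091 carried 1 symbol, 1801 several and 11721 none, and 62 controls were left out. From each array, signals were floored at the median, log2 transformed and compared as described above; a gene was represented by its brightest probe set with 1 symbol. Genes named were all members, called pathway genes, IGFBP1, INSR, IRS1, IRS2, ITGB1, the 5 genes nearest IGFBP2 and RUNX1T1; PAPPA, ITGA5 and the IGF2 binding proteins not called were added after their values were seen. Members and lists were chosen with earlier results of these data known. Alternatives changed the floor, scaling, call rule and arrays. Python 3.11.15, numpy 2.4.6, pandas 2.3.3 and scipy 1.17.1 were used.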

Additional observations from a re-analysis of the deposited data

How the results depend on the processing

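IGFBP2 was lower in all 16 other settings, between -3.08 and -2.63 on the log2 scale, and called in 15; the methods' t-test with Benjamini-Hochberg adjustment and a fold above 2 left it uncalled at -2.97, as it left all probe sets (0 lower, 0 higher), all pathway genes (0 and 0) and all members (0). Changes of the call rule alone, and a lower, common or absent floor, could not move the IGFBP2 difference from -2.97. Of the 26 other member probe sets 7 were called under some setting, chiefly IGF2R 201393_s_at. Member probe sets called higher, 0 as reported, were 2 with spike-in scaling, 1 with arrays shifted to the same median, 1 with the mean of the arrays, 1 without a floor and 1 with the replicate block; those called lower were 3 with the mean of the arrays. Pathway genes called lower, 5 as reported, were 0 at 2-fold, 0 with spike-in scaling, 2 after the median shift, 14 by the mean and 3 by the methods' t-test unadjusted; those called higher, 4 as reported, were 1, 7, 6, 4 and 2 in that order. The pathway genes called lower kept that call in 9 (ADAM12) to 13 (IRS2, GRB10) of 16 other settings and those called higher in 12 (ITGAV) to 15 (IGF2BP2); none changed direction.

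All probe sets called lower, 1496 as reported, were 447 at 2-fold, 508 with spike-in scaling, 667 after the median shift, 3216 and 552 with the floor at the 25th and 75th percentile, 3717 by the mean, 4809 without a floor and 669 by the methods' t-test. Those called higher, 707 as reported, were 191, 2850, 2023, 1172, 415, 1468, 1744 and 271 in the same order. The median of all probe sets moved from -0.27 to 0.07 with spike-in scaling and to 0.00 after the median shift or quantile normalization.

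Leaving out 1 array at a time relaxes the call, since fewer comparisons must pass. Without 1 array, 1 to 3 member probe sets were called lower and 0 to 2 higher, 7 to 11 pathway genes lower and 4 to 5 higher, and 2256 to 3378 probe sets lower and 1057 to 1315 higher. IGFBP2 then ranged from -3.08 to -2.86. Array numbers do not pair the pools: deviations of same-numbered arrays correlated at 0.05. With the replicate block, 1953 probe sets were called lower and 869 higher, and the members called were IGFBP2 lower and IGF2R higher.

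Each line was 1 pool, so replicate cultures were not compared. Signals near the floor bound IGFBP3, IGFBP5, IGFBP6 and IGF1, for which a difference was not detectable on these arrays.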

Other observations

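IDE, the insulin-degrading enzyme, was in no list and was looked at after its values were seen. Its 3 probe sets all read lower in U937-AE, and 1 of them, 203328_x_at, was called lower, 1.66-fold: 203327_at gave 807.5 and 945.4 against 1243.8 and 1183.1, 203328_x_at 671.1 and 777.3 against 1212.2 and 1191.3, and 217496_s_at 636.2 and 372.0 against 836.8 and 916.0, with log2 differences of -0.47, -0.73 and -0.85. CCN3, an IGFBP-related matricellular protein, gave 231.4 and 273.5 in U937-AE cells and 685.3 and 369.7 in control cells, 2.00-fold lower but not called; the copies of the U937-Mt pool were 1.85-fold apart.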
